A study of Bos grunniens with 6 samples.

Results

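The extracellular matrix is the meshwork of collagens, laminins and other glycoproteins that cells secrete around themselves. In the testis it forms the basement membrane and the collagen layers of the wall of the seminiferous tubule, on which Sertoli cells and spermatogonia rest and which peritubular myoid cells help to build. Cells hold on to it through integrins, receptors made of an alpha and a beta chain, and remodel it with metalloproteases of the ADAM, ADAMTS and MMP families, which the TIMP proteins inhibit.

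These genes were taken from the annotated m6A peak list by the start of their symbol, for collagens, laminins, integrins, ADAM, ADAMTS, MMP, TIMP and LOX proteins and a set of named glycoproteins and proteoglycans. The rule found 185 of the 16186 listed peaks, on 92 of the 8986 gene identifiers with a peak and under 85 symbols. The members lay on 27 chromosomes. The list pairs symbols with peaks only, so every member carries a peak by construction. Of the 23 name stems in the rule, 16 found a peak and 7 did not, these being HSPG2, AGRN, TNC, TNX, ELN, VCAN and DCN. No peak was listed under *COL1A1*, *COL1A2*, *ITGB1*, *ITGAV*, *MMP2*, *TIMP1* or *TIMP2* either, names that were looked up after the list had been seen. Another 384 peaks on 211 identifiers had no symbol and could not be searched. *ITGB1BP1* came in by its name alone, since it encodes a cytoplasmic protein that binds the integrin beta 1 tail, and it was placed in no family.

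The data came from testis tissue of 3 healthy cattle-yaks, the hybrids of cattle and yak whose males are sterile, which were 5 years old and were sampled by castration. Each animal (TES5, TES6 and TES7) gave 1 library of RNA fragments pulled down with an anti-m6A antibody (IP) and 1 library of the same RNA before the pull-down (input), 6 libraries in all, from whole tissue that was not sorted by cell type. Peaks are stretches where the IP exceeded the input, and 1 list without scores covers the 3 animals together, so no spread between animals exists for any peak. Expression was available as FPKM, a level per transcript length and library size, for the 3 input libraries, and only 1 condition was analysed here, with no control group and no test between conditions. FPKM values keep no read numbers, so the depth behind each value is unknown from the tables. Among the 20953 genes with an FPKM, 8775 (41.9%) carried a listed peak. Markers of the labelled tissue were present where a symbol was listed, with *SOX9* of Sertoli cells at 26.7, 27.5 and 28.4 FPKM, *STAR* of Leydig cells at 100.2, 108 and 112, and *ACTA2* of peritubular myoid cells at 226, 254 and 232 in TES5, TES6 and TES7.

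More than 1 peak was listed for most matrix and adhesion genes, although among peaks of at most 1000 bp 66.7% of the genes had only 1. The matching share over all genes with such a narrow peak is not given here. A single peak was listed for 39 of the 92 members (42.4%, 95% Wilson interval 32.8% to 52.6%), against 54.0% of all genes with a peak. At least 3 peaks were listed for 27 members (29.3%, 21% to 39.3%), against 19.4% of all genes with a peak. With at least 4 peaks the shares came together, at 7 members (7.61%) against 7.92%. These intervals cover counting error only, since genes and peaks are not replicates. The members are long genes. The median genomic span of their listed transcripts was 71313.5 bp against 28394 bp for all genes with a peak. Across the 92 members, the number of peaks and the span had a Spearman's rho of 0.28, and across all genes with a peak 0.29.

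**Figure D1:**
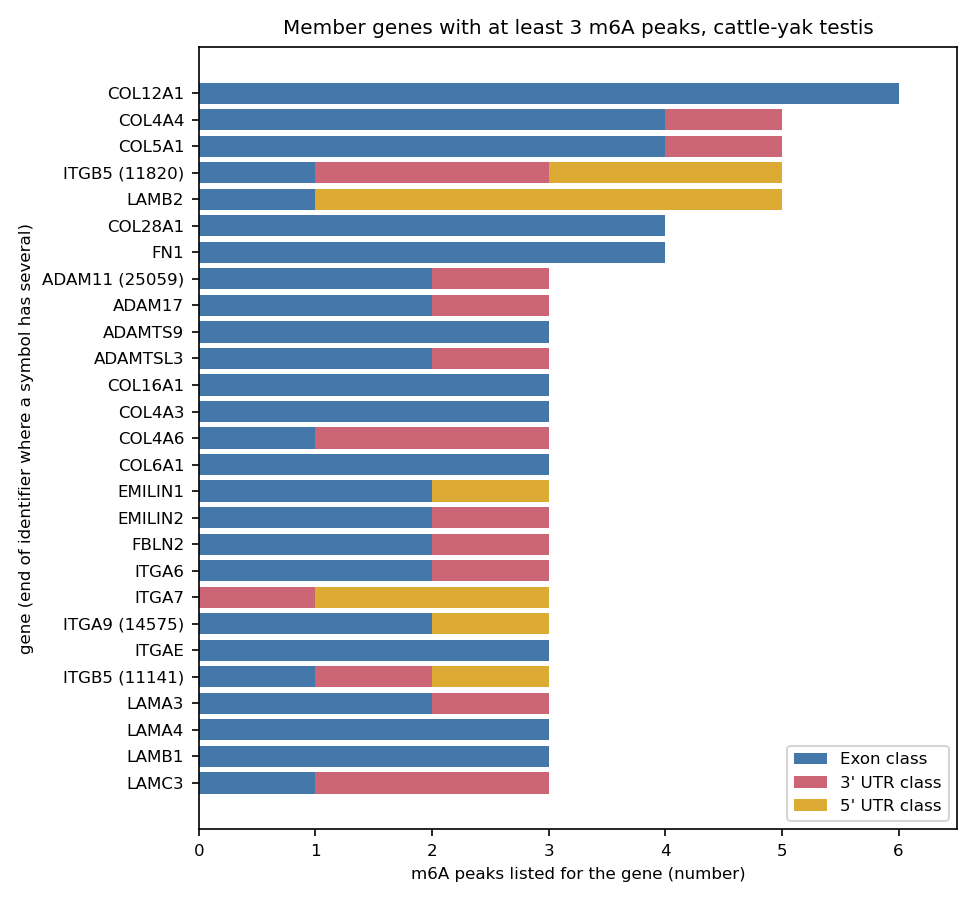
Number of listed m6A peaks (x axis) for each member gene with at least 3 peaks (y axis), with bars divided by annotation class. *COL12A1* stands first with 6 peaks, all in exons. The peaks of *LAMB2* are mostly in the 5' UTR class, although they lie near the middle of its listed transcript.

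*COL12A1*, which encodes a fibril-associated collagen, carried the most peaks, 6 in all. They lay on chromosome 10 between 79148971 and 79253091 and were assigned to exons 9, 12, 14, 18, 41 and 59 of 65, so they were spread along the transcript. Next came *COL4A4*, *COL5A1*, *LAMB2* and the *ITGB5* identifier ENSBGRG00000011820 with 5 peaks each, and *COL28A1* and *FN1* with 4 each. *COL4A4* encodes a chain of the basement membrane collagen IV network, and its peaks fell on exons 4, 8, 23 and 30 of 48 and in the 3' UTR. *COL5A1*, a chain of the collagen V that is built into collagen fibrils, had peaks on exons 6, 14, 29 and 55 of 67 and 1 peak of 151 bp in the 3' UTR. *FN1*, the gene of fibronectin, had pairs of peaks near its ends, on exons 3 and 6 and on exons 40 and 41 of 47.

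*LAMB2* differed from these in how its peaks were listed. It encodes the laminin beta 2 chain. Its 4 peaks in the 5' UTR class formed near-identical pairs on chromosome 22, of 2385 and 2388 bp and of 379 and 382 bp, whose starts were 3 and 9 bp apart. Despite the class, these peaks lay between 51.8% and 63.6% of the span of the listed transcript, not at its start. Joining the peaks of a gene that overlap or lie within 100 bp left 177 member peaks in place of 185 and lowered the number in 7 genes, *LAMB2* from 5 to 3 and *ITGA7*, *ITGB5*, *LAMB1*, *EMILIN2*, *FN1* and *ADAMTS20* by 1 each. After joining, 24 members kept at least 3 peaks, 26.1% against 16.5% of all genes with a peak.

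The classes of the member peaks were near those of the whole list. Exon peaks numbered 123 (66.5%, 59.4% to 72.9%), against 70.3% of all peaks. The 3' UTR class held 44 (23.8%, 18.2% to 30.4%), against 20.8%, and the 5' UTR class 18 (9.73%, 6.24% to 14.9%), against 8.82%. Each interval held the share of the whole list. Peaks are given as spans on the genome with introns included, and 83 of the 185 (44.9%) were at most 1000 bp wide, against 49.8% of all peaks. The median width was 1308 bp, with quartiles of 301 and 4674 bp, against a median of 1022 bp. By class, member exon peaks were wider than all exon peaks (medians 2583 and 1333 bp), whereas member 3' UTR peaks (300 against 447 bp) and member 5' UTR peaks (909.5 against 1985 bp) were narrower.

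Within the members, the exon share was highest in the collagens and lowest in the integrins. Collagen peaks were 89.8% exon (44 of 49), with 4 others at the 3' UTR and 1 at the 5' UTR. Laminin peaks were exon peaks in 17 of 25 cases, and those of the glycoproteins in 17 of 26. Among the 30 integrin peaks, 13 (43.3%) were exon, 10 (33.3%) 3' UTR and 7 (23.3%) 5' UTR. For the proteases and TIMPs the numbers were 27 (56.2%), 18 (37.5%) and 3 (6.25%) of 48. Within the proteases, the ADAMTS and ADAMTSL genes had exon peaks in 17 of 25 cases, the same count as the laminins. Widths ran the same way over these 3 groups, with a median of 2980 bp in the collagens, 1232.5 bp in the proteases and TIMPs and 385 bp in the integrins. Of the collagen peaks 30.6% were no wider than 1000 bp, and of the integrin peaks 73.3%. The 5' UTR class did not always mean the start of a gene. Integrin peaks of this class lay 37.9% to 46.2% along the listed transcript in *ITGA9* and 17.4% to 26.3% along it in *ITGB5* (ENSBGRG00000011820). The 2 in *ITGA7* overlapped each other. Peaks of 1 gene share that gene, and these differences were not tested.

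**Figure D2:**
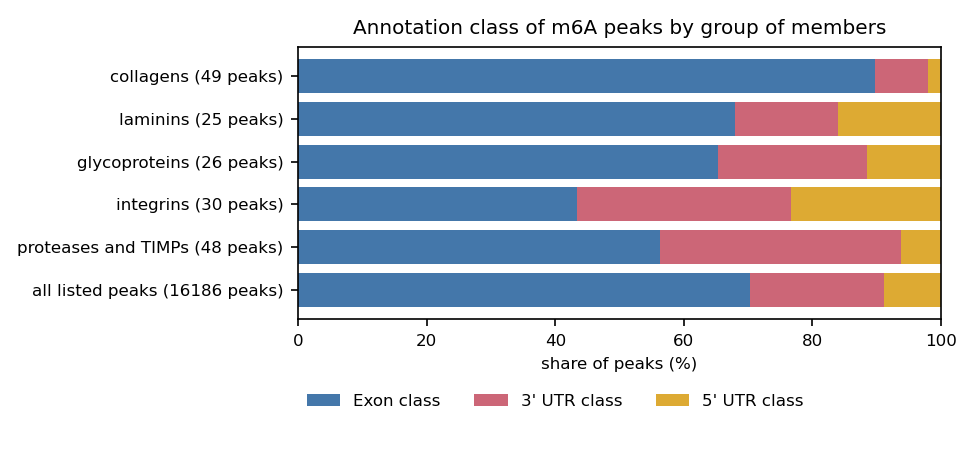
Share of listed peaks (%, x axis) by annotation class for 5 groups of member genes and for all 16186 peaks. The exon share runs from 89.8% in the collagens to 43.3% in the integrins, on either side of 70.3% in the whole list.

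Exon peaks of the members were assigned to inner exons more often than those of the whole list. Counting transcripts with at least 3 exons, 106 of 116 member peaks (91.4%, 84.9% to 95.3%) were assigned to an exon that was neither the first nor the last, against 75.9% of all such peaks. The last exon held 6 (5.17%) against 11.6%, and the first exon 4 (3.45%) against 12.5%. Each peak is given 1 exon number however wide it is, so a peak assigned to an inner exon can reach an end of the transcript. The *LAMB1* peak assigned to exon 31 of 33 and the *ADAM9* peak assigned to exon 10 of 13 both ran to the 3' end. Member exon peaks were also the wider ones, with medians of 2583 against 1333 bp. Member transcripts also have many exons, with a median of 31 for the exon peaks against 12, and 62 of the 123 exon peaks (50.4%) were in transcripts of at least 30 exons, against 11.6%. If every exon were equally likely, 5.15% of member exon peaks and 10.5% of all exon peaks would lie in the last exon. The shares found were close to these, but the reckoning takes each peak as lying in 1 exon. Among peaks of at most 1000 bp, 26.3% of member exon peaks were in the last exon, counting transcripts of any exon number. Whether exon number accounts for the shares was not tested.

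Some integrin exon peaks were listed in an exon of another gene identifier, and which of the overlapping transcripts the IP reads came from cannot be told from the tables. In 10 of the 123 member exon peaks (8.13%, against 4.83% of all exon peaks) the exon was listed under another identifier or under a transcript without a gene. Both peaks of *ITGA1*, the alpha chain of a collagen receptor, lay in exons of ENSBGRG00000020395, whose FPKM was 8.03, 8.38 and 8.60, while *ITGA1* itself was at 1.12, 1.57 and 1.96. All 3 exon peaks of *ITGAE*, the alpha chain of a lymphocyte receptor for E-cadherin, lay in ENSBGRG00000021199, at 9.92, 6.04 and 5.51 FPKM against 2.62, 2.92 and 2.35 for *ITGAE*. Neither of these other identifiers had a symbol. *ITGA9* (ENSBGRG00000014575) had 2 such peaks, in ENSBGRG00000014786 and ENSBGRG00000014637, and *ADAMTS20* (ENSBGRG00000018811) had 1, in ENSBGRG00000019212. With such exon peaks left out, the exon share was 26.1% (6 of 23) in the integrins, 53.3% in the proteases and TIMPs and still 89.8% in the collagens. UTR peaks were not checked for other transcripts and all stayed in, so these shares could not rise.

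The remaining 2 of these peaks lay outside the gene. The peak assigned to *ADAM2*, whose product is the sperm surface protein fertilin beta, lay upstream of the listed transcript, at -21964 bp from its start, and 1 of the 2 peaks of *ADAMTS16* lay at -50807 bp from its start. *ADAM2* had no other peak, and its FPKM was 0.675, 0.275 and 0.193. A peak within the *ADAM2* transcript was therefore not listed.

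**Figure D3:**
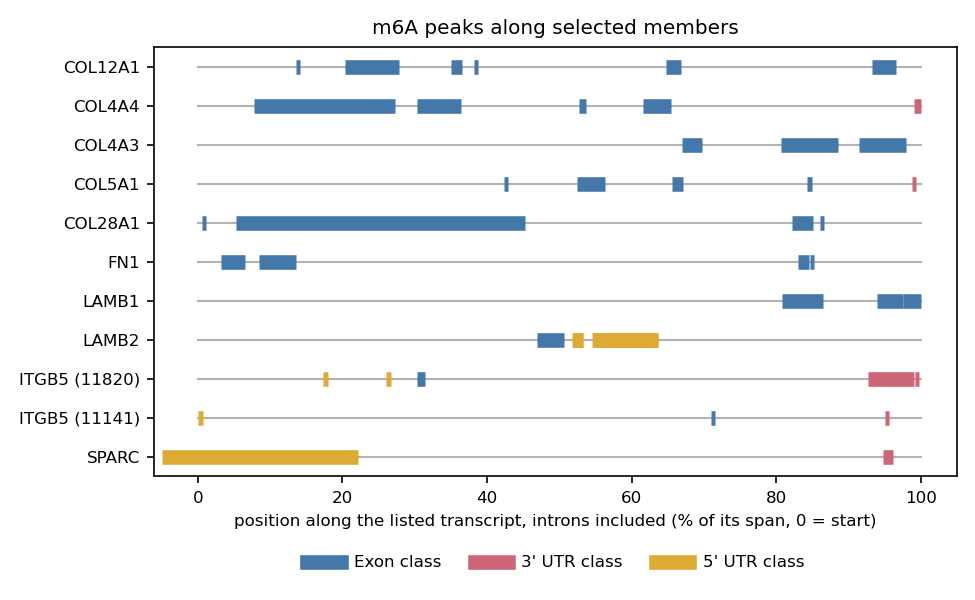
Position of listed peaks along the genomic span of the listed transcript (x axis, % from the 5' end to the 3' end, introns included) for selected members, with colours for the annotation class. The 6 peaks of *COL12A1* are spread along the gene. Very short peaks are drawn at a minimum width so that they can be seen, and parts before the transcript start are clipped at the left edge.

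The widest peaks spanned much of a gene, and that of *TIMP3* reached beyond it. The widest member peak, of 311133 bp on chromosome 5 from 33080329 to 33391461, was assigned to the 3' UTR of *TIMP3*, which encodes a matrix-bound inhibitor of metalloproteases. It contained the whole listed transcript of 62035 bp, and it was the only member peak to do so. The next widest were assigned to exon 9 of 29 of *COL21A1* (101151 bp), exon 6 of 11 of *ITGBL1* (93979 bp), exon 4 of 36 of *COL28A1* (85632 bp) and the 5' UTR class of *TIMP4* (85386 bp). The first 3 of these lay within their genes. The *TIMP4* peak began before the start of its listed transcript, but lay within a longer transcript listed for the same identifier. That transcript spanned 214910 bp with 16 exons, and the other *TIMP4* peak was assigned to its exon 8. Whether this transcript, and the FPKM of the identifier, belong to *TIMP4* cannot be told from the tables. Both TIMP genes with a peak were thus among these 5. Among the proteases, median widths were 491 bp in the ADAMTS and ADAMTSL genes, 1009 bp in the MMP genes and 2246 bp in the ADAM genes. With the TIMP genes, 11 of 48 peaks were over 10000 bp. Over all members 27 of 185 peaks were this wide (14.6%), near the 14.4% of the whole list. Widths in the proteases ran up to 28030 bp in *ADAMTSL1*, while *MMP14*, a membrane-bound metalloprotease, had peaks of 400 and 1009 bp in the 3' UTR.

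Expression of the members ran over a wide range. FPKM was at least 1 in all 3 input libraries for 77 of the 92 (83.7%, 74.8% to 89.9%), against 86.9% of all genes with a peak. Another 13 were under 1 in every library and 2 in some only, and none was at 0. The median of the mean FPKM was 4.44, with quartiles of 1.71 and 14.8, against 7.36 for all genes with a peak. At least 10 FPKM was reached by 28 members (30.4%, against 39.7%). The number of peaks and the mean FPKM had a Spearman's rho of 0.28 across the 92 members, while across all 8775 genes with a peak and an FPKM rho was -0.0030. Genes are not independent replicates, and these values describe this list only.

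*SPARC*, which encodes the collagen-binding glycoprotein osteonectin, had the highest level, at 403, 375 and 396 FPKM in TES5, TES6 and TES7 (391 ± 14.7, SD, n = 3). It was followed by *TIMP3* at 89.4, 96.2 and 112 (99.2 ± 11.6). *SPARC* lay far above the other members in every animal. Its 2 peaks were 1 of 201 bp in the 3' UTR and 1 of 16457 bp in the 5' UTR class that reached upstream of the start. Its relative *SPARCL1* was at 35.6, 35.1 and 35.7 (35.5 ± 0.358), the smallest spread among the 28 members of at least 10 FPKM.

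**Figure D4:**
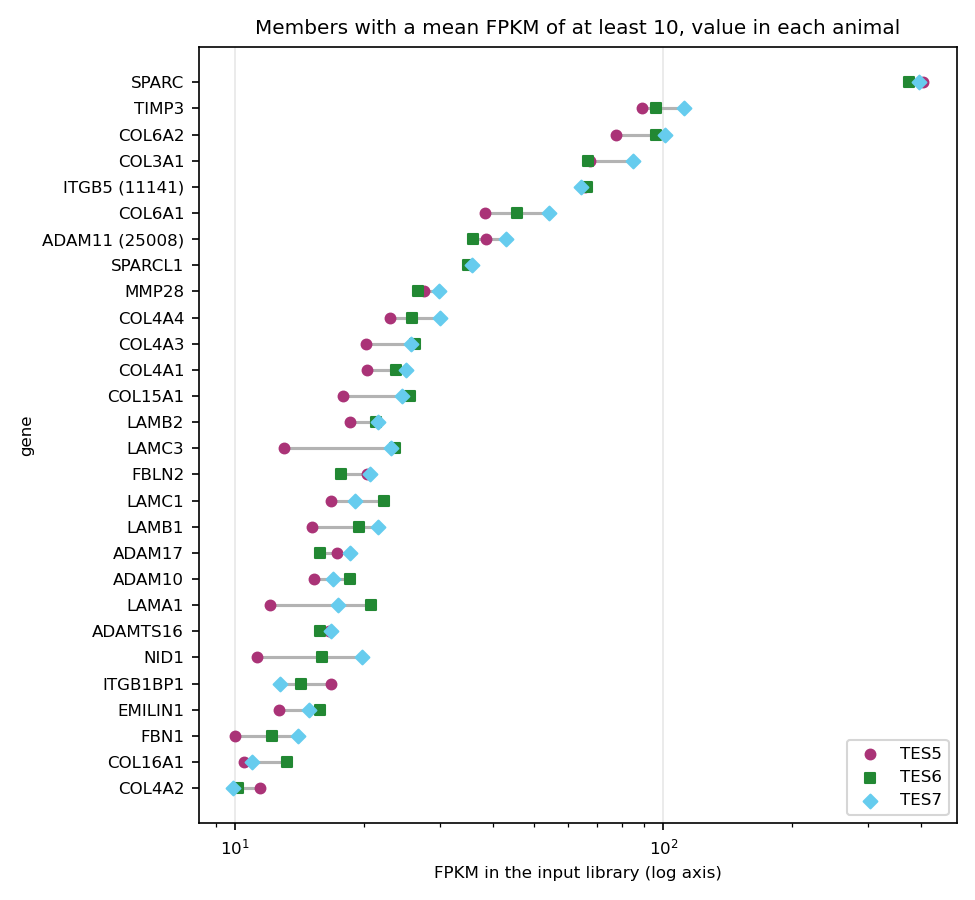
FPKM in the input library of each animal (x axis, log scale) for the 28 member genes whose mean FPKM reached 10 (y axis), 1 point per animal. *SPARC* stands at 375 to 403, above *TIMP3* at 89.4 to 112, and the points of TES5 lie to the left for most collagens and laminins.

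Collagens VI and III led the collagens. *COL6A2*, a chain of the beaded microfibrils of collagen VI, was at 77.5, 96.3 and 101 FPKM (91.7 ± 12.5), and *COL6A1*, whose product joins it in the same trimer, at 38.3, 45.5 and 54.2 (46.0 ± 7.94). *COL3A1*, a fibril-forming collagen of soft tissues, was at 67.3, 66.8 and 84.9 (73.0 ± 10.3) and had 1 peak, of 887 bp in exon 50 of 51. The other fibrillar collagens with a peak were low, with means from 0.885 in *COL11A2* to 5.46 in *COL5A2*. *COL16A1*, with 3 exon peaks, led the collagens outside the fibrillar, basement membrane and collagen VI families at 10.5, 13.2 and 10.9 (11.5 ± 1.46). *COL21A1*, *COL28A1*, *COL14A1* and *COL12A1* followed with means of 4.65 ± 1.08, 4.51 ± 0.509, 4.32 ± 1.06 and 3.18 ± 2.31, not apart beyond their spread. *COL8A2* and *COL22A1* were below 1, with means of 0.703 and 0.565.

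Of the collagen IV chains, which form the network of basement membranes, 4 sat as neighbouring pairs on the genome, and the levels were alike in 1 pair and unlike in the other. *COL4A3* and *COL4A4* are arranged head to head on chromosome 2 with a gap of 18754 bp, and their means were 24.05 ± 3.39 and 26.3 ± 3.54 FPKM. *COL4A1* and *COL4A2*, head to head on chromosome 15 with 54680 bp between them, were at 23.0 ± 2.43 and 10.5 ± 0.836. The first pair overlapped across animals (20.1, 26.3 and 25.7 against 23.0, 25.9 and 30.01), and the second did not (20.3, 23.8 and 25.045 against 11.4, 10.1 and 9.89). *COL4A6* on chromosome X was lower, at 2.91, 3.54 and 3.59. The pairs carried 3 and 5 peaks and 2 and 2 peaks. *COL15A1*, a collagen anchored in the basement membrane zone, was at 17.8, 25.6 and 24.6 with 1 exon peak.

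Laminins, trimers of an alpha, a beta and a gamma chain, fell into a high and a low set. *LAMB2*, *LAMC3*, *LAMC1*, *LAMB1* and *LAMA1* had means of 20.5 ± 1.71, 19.9 ± 6.01, 19.3 ± 2.78, 18.7 ± 3.29 and 16.7 ± 4.39 FPKM, and these neighbours did not differ beyond their spread. The other alpha chains were lower, with means of 5.19 ± 1.46 in *LAMA2*, 2.17 ± 0.531 in *LAMA3*, 2.03 ± 0.226 in *LAMA4* and 1.36 ± 0.228 in *LAMA5*. *NID1*, the gene of nidogen 1 that links laminin to collagen IV, was at 11.3, 15.9 and 19.8 (15.6 ± 4.26) with 1 peak in exon 3 of 21.

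Among the glycoproteins below *SPARC* and *SPARCL1*, *FBLN2* (fibulin 2) was at 20.3, 17.7 and 20.6 FPKM, *EMILIN1* at 12.7, 15.8 and 14.8 and *FBN1*, the microfibril protein fibrillin 1, at 9.997, 12.2 and 14.0. The means of *EMILIN3*, *FBLN5*, *EMILIN2*, *THBS3*, *THBS4* and *FBN2* ran from 6.99 ± 1.19 down to 1.99 ± 0.677. Both thrombospondin genes had exon peaks only, 1 in *THBS3* (exon 14 of 23) and 2 in *THBS4* (exons 10 and 15 of 22), whereas both peaks of *FBN1* were in the 3' UTR. *FN1* was at 3.40, 2.90 and 6.56 (4.29 ± 1.99), so its 4 peaks were on a gene of modest and uneven level. *LUM*, the only proteoglycan found by the rule, was at 2.34, 2.42 and 3.39 with 1 peak of 343 bp. Of the lysyl oxidases, which cross-link collagen and elastin, *LOXL1* was highest at 8.86, 7.98 and 6.67 and carried 1 peak of 149 bp, the smallest width among the member peaks, which *EMILIN1* and *ADAMTS20* each had once as well. *LOXL2* (0.820 ± 0.190) had 2 peaks and *LOXL3* (1.70 ± 0.238) had 1, of 250 bp, which also overlapped the listed transcript of *HTRA2*, a gene at a mean of 29.1 FPKM.

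Integrins were mostly low apart from 1 beta 5 identifier. *ITGB5* was listed under 2 identifiers on chromosome 1, 118804 bp apart. ENSBGRG00000011141 was at 65.5, 66.4 and 64.3 FPKM (65.4 ± 1.10) with 3 peaks, and ENSBGRG00000011820 at 2.84, 2.86 and 4.69 (3.46 ± 1.06) with 5 peaks. The identifier with more peaks was thus the lower one in every animal. Whether they are parts of 1 gene, copies or different genes under 1 symbol cannot be told from the tables. The highest identifier under an alpha chain symbol was that of *ITGA7*, a laminin receptor chain, at 9.51, 7.33 and 7.22 (8.02 ± 1.29). Its listed transcript spanned 4551 bp, the shortest under these symbols, with *ITGA5* next at 16158 bp. Whether this identifier holds a whole alpha chain gene cannot be told from the tables. *ITGA6*, another laminin receptor chain and a marker of spermatogonia, was at 5.24, 5.93 and 6.21 with exon peaks of 3007 and 2789 bp and a 3' UTR peak of 150 bp. *ITGA5*, the alpha chain of the fibronectin receptor, was at 3.57, 4.33 and 3.35 with 1 peak of 950 bp in the 3' UTR. *ITGA9* was again listed under 2 identifiers, at 4.51 ± 1.00 and 4.90 ± 1.43, and *ITGA2B* and *ITGAL*, chains found on platelets and leukocytes, had means of 3.98 ± 0.189 and 1.31 ± 0.300. *ITGA2* was at 0.182, 0.123 and 0.178 with 2 peaks in the 3' UTR. *ITGBL1*, an integrin beta-like secreted protein, varied most, at 0.775, 0.0208 and 0.166. Outside the family, *ITGB1BP1* was at 16.7, 14.3 and 12.7 with 1 peak of 150 bp in the 3' UTR.

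In the proteases, levels were highest in *ADAM11*, *MMP28*, *ADAM17*, *ADAM10* and *ADAMTS16*. *ADAM11*, a member of the family that lacks protease activity, was split over 2 identifiers on chromosome 19, at 38.5, 35.9 and 42.9 FPKM (39.1 ± 3.54, 1 peak) and at 5.95, 6.12 and 4.94 (5.67 ± 0.637, 3 peaks). *MMP28* (epilysin) was at 27.5, 26.7 and 29.98 (28.1 ± 1.69) with 1 peak of 20120 bp in the 3' UTR class. The sheddases *ADAM17* and *ADAM10* were at 17.2 ± 1.39 and 16.9 ± 1.65, not apart beyond their spread, and had 3 and 2 peaks. *ADAMTS16* was at 16.5, 15.7 and 16.7, while the other 15 ADAMTS and ADAMTSL identifiers had means from 0.135 in *ADAMTS19* to 7.65 in 1 of the 4 identifiers of *ADAMTS20*. The *ADAMTS20* identifiers lay on both strands, ENSBGRG00000019405 on the plus strand and the others on the minus strand, so they cannot all be parts of 1 gene. Whether the symbol is right for each of them cannot be told from the tables. In all, 5 symbols were spread over 12 identifiers, and reads shared between such identifiers cannot be assigned from these tables. The means of *ADAM9*, *ADAM12* (2 identifiers) and *ADAM19* ran from 4.15 ± 0.459 down to 1.30 ± 0.321, and those of the ADAMTSL genes, whose products lack the protease domain, from 2.76 ± 0.0370 in *ADAMTSL1* to 1.33 ± 0.391 in *ADAMTSL5*. *ADAMTSL3* was lower in TES7 than in the other animals, at 1.98, 1.80 and 1.05. *ADAMTS1* (5.95 ± 1.38) and *ADAMTS5* (0.254 ± 0.116), neighbours on chromosome 1, differed 23.5-fold. *MMP24* was at 9.54, 5.07 and 7.22, *MMP14* at 6.03, 6.19 and 5.79 and *TIMP4* at 4.44, 5.40 and 5.64.

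The animals differed in these genes mainly through TES5. Of the 77 members that reached 1 FPKM in all input libraries, 46 (59.7%, 48.6% to 70%) had their lowest value in TES5, against 41.8% of all genes with a peak that passed the same minimum and 37.6% of all genes that did. TES6 was lowest in 15 (19.5%, against 30.2%) and TES7 in 16 (20.8%, against 28.0%). TES5 was highest in 15 (19.5%), against 35.9%. On the log2(FPKM + 1) scale, the median difference of TES5 from the mean of the other animals was -0.20 over these members and -0.023 over all such genes with a peak, so the shift was small for most genes. TES5 was at least 1.5 times below the mean of TES6 and TES7 in 7 members (9.09%), against 4.02%.

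The low values in TES5 were found in collagens and laminins more than in integrins and proteases. TES5 was lowest in 14 of 17 collagens, with a median log2 difference of -0.27, in 8 of 9 laminins (-0.38) and in 30 of 40 matrix proteins of all kinds (-0.28). In the glycoproteins it was lowest in 6 of 12 and TES6 in the other 6, with a median for TES5 of -0.27, as in the collagens. In the integrins TES5 was lowest in 4 of 10 (-0.039), and in the proteases and TIMPs in 11 of 24 (-0.028). The largest single differences among members of at least 10 FPKM were in *LAMC3* (13.0 in TES5 against 23.6 and 23.1), *LAMA1* (12.1 against 20.8 and 17.3) and *NID1* (11.3 against 15.9 and 19.8). *COL12A1*, the gene with the most peaks, was at 1.12, 2.75 and 5.68, a 5.07-fold range. In the opposite direction, TES5 was highest in 1 collagen, *COL4A2* (11.4 against 10.1 and 9.89), and in 1 laminin, *LAMA4* (2.20 against 2.11 and 1.77). It was also highest in 3 integrin identifiers, with *ITGA7* among them, and in 6 of the proteases and TIMPs, with *MMP24* among them. TES5 is 1 animal, and none of these differences was tested. Members together made up 0.439%, 0.5% and 0.522% of the summed FPKM of TES5, TES6 and TES7.

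**Figure D5:**
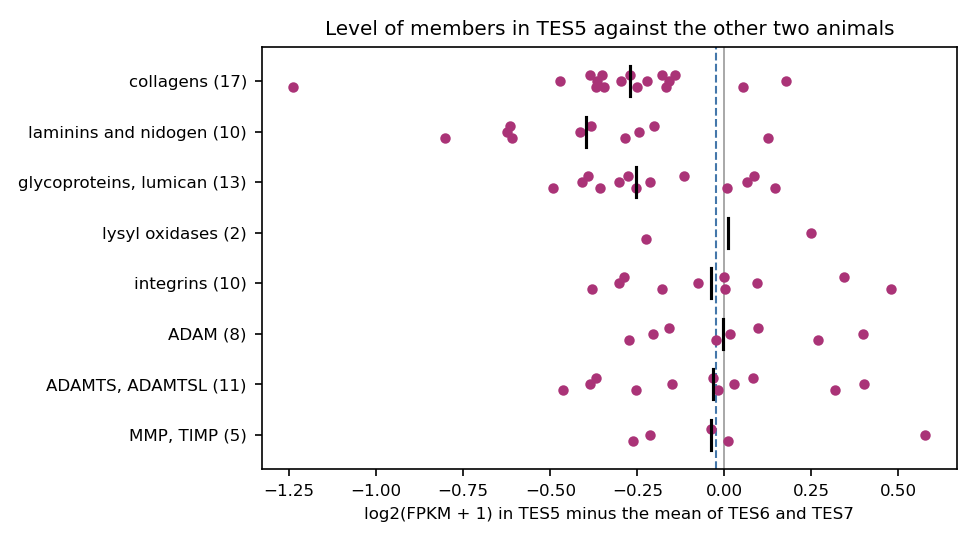
Difference between TES5 and the mean of TES6 and TES7 in log2(FPKM + 1) (axis in log2 units) for the members that reached 1 FPKM in all input libraries, 1 point per gene, by group. Black ticks are group medians and the dashed line is the median of all genes with a peak, -0.023. The laminins and collagens lie mostly below the line and the integrins and proteases on both sides of it.

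Markers of several cell types moved with TES5. All 6 listed peritubular myoid markers could be looked up, and 5 were lowest in TES5, with summed FPKM of 375, 426 and 408 in TES5, TES6 and TES7. Of 9 Sertoli markers 3 could be looked up, *SOX9*, *WT1* and *FSHR*, and all were lowest in TES5 (sums 56.9, 69.9 and 67.8), as were 3 of 6 spermatogonial markers (15.8, 18.9 and 24.2) and *STAR*, 1 of 6 Leydig markers. These lists thus went the same way as the collagens and laminins. Of the macrophage markers 3 of 4 could be looked up and 2 were lowest in TES5 (11.7, 12.8 and 14.5). The fibroblast marker *PDGFRA*, the only 1 of 6 that is listed and no member, was at 13.5, 21.9 and 21.8. The spermatocyte markers went the other way, with 5 of 8 identifiers of 4 symbols highest in TES5 (67.5, 45.3 and 50.05) and 1 identifier of *SYCP2* listed at 0, and so did both identifiers of *TSSK1B*, 1 of 6 spermatid markers (15.99, 14.4 and 12.9). Endothelial markers were lowest in TES5 in 1 of 5 and in TES7 in 4 of 5 (14.9, 16.8 and 13.5). The part of cell composition in the TES5 values was not tested, and in whole tissue fewer cells of a type and less RNA per cell cannot be told apart.

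Other genes of the matrix and adhesion system were looked up by symbol. Of 97 listed symbols, 49 had a peak, on 51 identifiers with 89 peaks in all. They comprised 9 of 20 symbols for collagen biosynthesis, 18 of 39 for proteoglycans and other matrix proteins, 9 of 13 for matrix receptors other than integrins, 10 of 18 for integrin adaptors and 3 of 7 for protease regulators. At least 1 FPKM in every library was reached by 45 identifiers, and TES5 was lowest in 25 of them (55.6%), against 41.8% of all genes with a peak. By list, TES5 was lowest in 7 of 16 for proteoglycans and other matrix proteins, 5 of 8 for collagen biosynthesis, 5 of 8 for the other matrix receptors, 7 of 11 for integrin adaptors and 1 of 2 for protease regulators. The proteoglycans and other matrix proteins of this list were thus close to the share of all genes with a peak.

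The annotation in the peak list described the members only in part. Of 83 members with a gene ontology entry, 21 (25.3%) had the term extracellular matrix, against 0.843% of all annotated genes with a peak, and 11 (13.3%) had basement membrane, against 0.29%. Of the 22 with a pathway entry, 9 (40.9%) were in ECM-receptor interaction, against 0.667%. The rule chose members by name, so these shares follow from it. The term RNA-directed DNA polymerase activity, which belongs to retroelements and not to matrix proteins, was attached to 19 members (22.9%) and to 16.7% of all annotated genes with a peak. Members were chosen by symbol alone, and the ontology terms of the list were not used to choose them.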

How the data were processed

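Testis RNA of 3 cattle-yaks was profiled by MeRIP-seq. Before deposit, Trimmomatic had removed adapters and SortMeRNA the ribosomal reads, and HISAT2 2.0.4 had placed the rest on LU_Bosgru_v3.0 (Ensembl release 99), with unique reads kept. The authors called peaks with MeTDiff (IP against input) and annotated them with ChIPseeker, and the deposited peak list gives positions without scores. The FPKM table, which the authors deposited, holds the 3 input libraries, and its program is not given in the sources used here. The depth per gene is unknown, so no detection limit was given.

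Members were found by symbol in the peak list and joined to FPKM by identifier. The members, families and gene lists were chosen with earlier results of these data known. Counts, widths, classes and exon numbers of peaks were summarised with Wilson 95% intervals, and FPKM as mean and SD over the 3 animals. The minimum was 1 FPKM in every library and the pseudocount 1. No test was made, since 1 condition and 1 pooled peak list allow none. Tables were handled in pandas 2.3.3 and numpy 2.4.6 under Python 3.11.15, with SciPy 1.17.1 for rank correlations and matplotlib 3.10.9 for plots, and the procedures were tested on simulated data. Genes were named by rule: at least 4 peaks, the 10 highest mean FPKM, the 5 largest coefficients of variation at a mean FPKM of at least 5, the leading genes of each family, the 5 widest peaks, and up to 5 genes with a peak in an exon of another gene or outside the transcript. Other members, described to complete their families, were chosen after their values were seen. Alternatives were joined peaks, name-only matches left out, other FPKM minimums and pseudocount, peaks of at most 1000 bp, counting by symbol, own exons only, weighting by peak width, libraries rescaled to a common median, and leaving out animals singly. All alternatives for the share of members lowest in TES5 were chosen after seeing the data. No sequence of this build was used here, so no motif was searched. A member gene is not reported here.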

Additional observations from a re-analysis of the deposited data

How the results depend on the processing

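Restricting the list to peaks of at most 1000 bp changed most peak counts. It left 83 member peaks, with a single peak in 66.7% of genes, 45.8% exon and 42.2% 3' UTR peaks, and 26.3% of exon peaks in the last exon. The same shares over all peaks of at most 1000 bp are not given here, so whether narrow member peaks differ from them is unknown. In *ITGA1*, *ITGAE* and *ADAMTS16* the last exon was exon 2 of 2 of another identifier or of a transcript without a gene. By family it left 3 peaks for the fibrillar collagens, 4 for the basement membrane collagens, 2 for collagen VI, 6 for other collagens, 6 for laminins, 13 for glycoproteins, 2 for lysyl oxidases, 15 for ADAMTS and ADAMTSL, 6 for ADAM and 2 for MMP, and no value for nidogen and the TIMP genes. Restricting to genes of at least 1 FPKM in every library left 2 lysyl oxidase peaks. Joined peaks, name-only matches left out, counting by symbol and weighting by width, each applied to the results it was planned for, moved no share over all members beyond its interval and no count of peaks by over 1.5 times. Own exons and transcripts only left 175 member peaks, and the integrin exon share fell from 43.3% to 26.1%. This setting removed exon peaks only, so the exon share could not rise. With each animal left out in turn, 77 to 78 members reached the minimum and the median coefficient of variation ran from 10.5% to 15.4%, the lowest without TES5, against 14.1% with all animals and 11.6% for all genes with a peak. The median log2 difference of TES5 was -0.21 over members whose mean FPKM reached 1 and ran from -0.17 to -0.22 under the alternatives. The share of members lowest in TES5 was 56.5% to 60.7% under the alternatives added after seeing the data, against 42.7% of all genes with a peak after rescaling and 38.2% at a mean FPKM of at least 10. Among the 38 genes named by rule, the mean FPKM moved by over 1.5 times in *ITGBL1* (0.321 to 0.0932 without TES5), *ADAM2* (0.381 to 0.234 without TES5) and *COL12A1* (3.18 to 1.94 without TES7). No paired analysis was possible because peaks were given for the 3 animals together and FPKM for inputs only.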
